A study of Homo sapiens with 9 samples.

Results

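Transcripts of 10 genes that build or restrain matrix-degrading activity were followed in HMEC-1, an established line of human dermal microvascular endothelial cells. These were the matrix metalloproteinases (MMPs) MMP1, MMP2, MMP3, MMP10, MMP14 and MMP16, the tissue inhibitors of metalloproteinases TIMP1, TIMP2 and TIMP3, and the membrane-anchored inhibitor RECK. The members were taken by symbol from a table of 29740 genes. HMEC-1 in low-serum medium received 50 µM trimethylamine N-oxide (TMAO, an oxidised amine derived from gut microbial metabolism) for 24H or 48H, and untreated HMEC-1 served as controls (CTRL). RNA of each group was sequenced in 3 libraries. All groups came from 1 cell line. The controls were pooled from both time-points, so that time in culture and TMAO cannot be told apart.

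MMPs are zinc-dependent proteases, made as inactive pro-enzymes, that cut collagens, fibronectin, proteoglycans and other matrix proteins. TIMPs block them by binding the catalytic zinc, and RECK restrains several of them at the cell surface. On endothelial cells, membrane-bound MMP14 and TIMP2 hold pro-MMP2 in a complex in which a neighbouring MMP14 activates it, and this system opens the basement membrane when vessels sprout.

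The catalytic site shows what the proteases have in common. The 33 bases that encode it are given here from the GENCODE v29 transcripts of 5 of the proteases, with the codons of the 3 zinc-binding histidines in capitals.

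MMP2: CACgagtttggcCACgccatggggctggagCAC
MMP14: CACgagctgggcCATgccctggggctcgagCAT
MMP10: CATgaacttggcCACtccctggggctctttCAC
MMP3: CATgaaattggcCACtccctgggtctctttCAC
MMP1: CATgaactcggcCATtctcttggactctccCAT

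The site was found by searching each translated protein for the pattern HExxHxxGxxH. The places of the 3 histidine codons, a glutamate codon and a glycine codon were therefore set by the search. The bases between the histidine codons differed. MMP14 shared 27 of the 33 bases with MMP2, MMP10 shared 24, MMP3 shared 23 and MMP1 shared 18, counting the codons that the search fixed. Identical words of 31 bases were sought in the transcript with the longest coding sequence of each member. Of the 45 pairs only MMP3 and MMP10 had such words, 125 in number, so reads of this pair may be assigned to either gene. Other transcripts of the members were not searched.

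The libraries held 25205756 to 36927373 estimated counts each. Ribosomal RNA (6 genes) took 31.5% of TMAO 24H replicate 1, and 1.64% to 7.46% of each of the other libraries. Normalised counts are counts scaled to the mean effective library size of the 9 libraries, and they are given as mean ± SD over n = 3 libraries in each group. A gene passed when its adjusted p was under 0.05 in edgeR's quasi-likelihood test with Benjamini-Hochberg adjustment over the 14740 genes tested, and it was called when it had also changed at least 1.4-fold. Of the 10 members, 9 entered the test. MMP3 (stromelysin 1) did not, as it had 0 to 2 counts in every library.

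The members of the surface complex, TIMP2, MMP2 and MMP14, had the highest levels. Per kilobase of annotated exon, the control level was 4843 ± 371 normalised counts for TIMP2, 3478 ± 325 for MMP2 and 3323 ± 133 for MMP14. TIMP1 followed at 1802 ± 66.9. The ranges of MMP2 and MMP14 overlapped in the controls, whereas TIMP2 lay above both and TIMP1 below both in each control library. The remaining members were lower. On the same scale the controls gave 319 ± 10.7 for MMP1, 261 ± 7.15 for RECK, 104 ± 9.77 for TIMP3, 35.7 ± 7.02 for MMP10 and 16.4 ± 1.74 for MMP16. At 48H the order at the top changed. MMP2 stood at 1593 ± 58.2 per kilobase, below MMP14 at 2858 ± 53.5 and with a range that overlapped that of TIMP1 at 1544 ± 35.1.

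**Figure D1:**
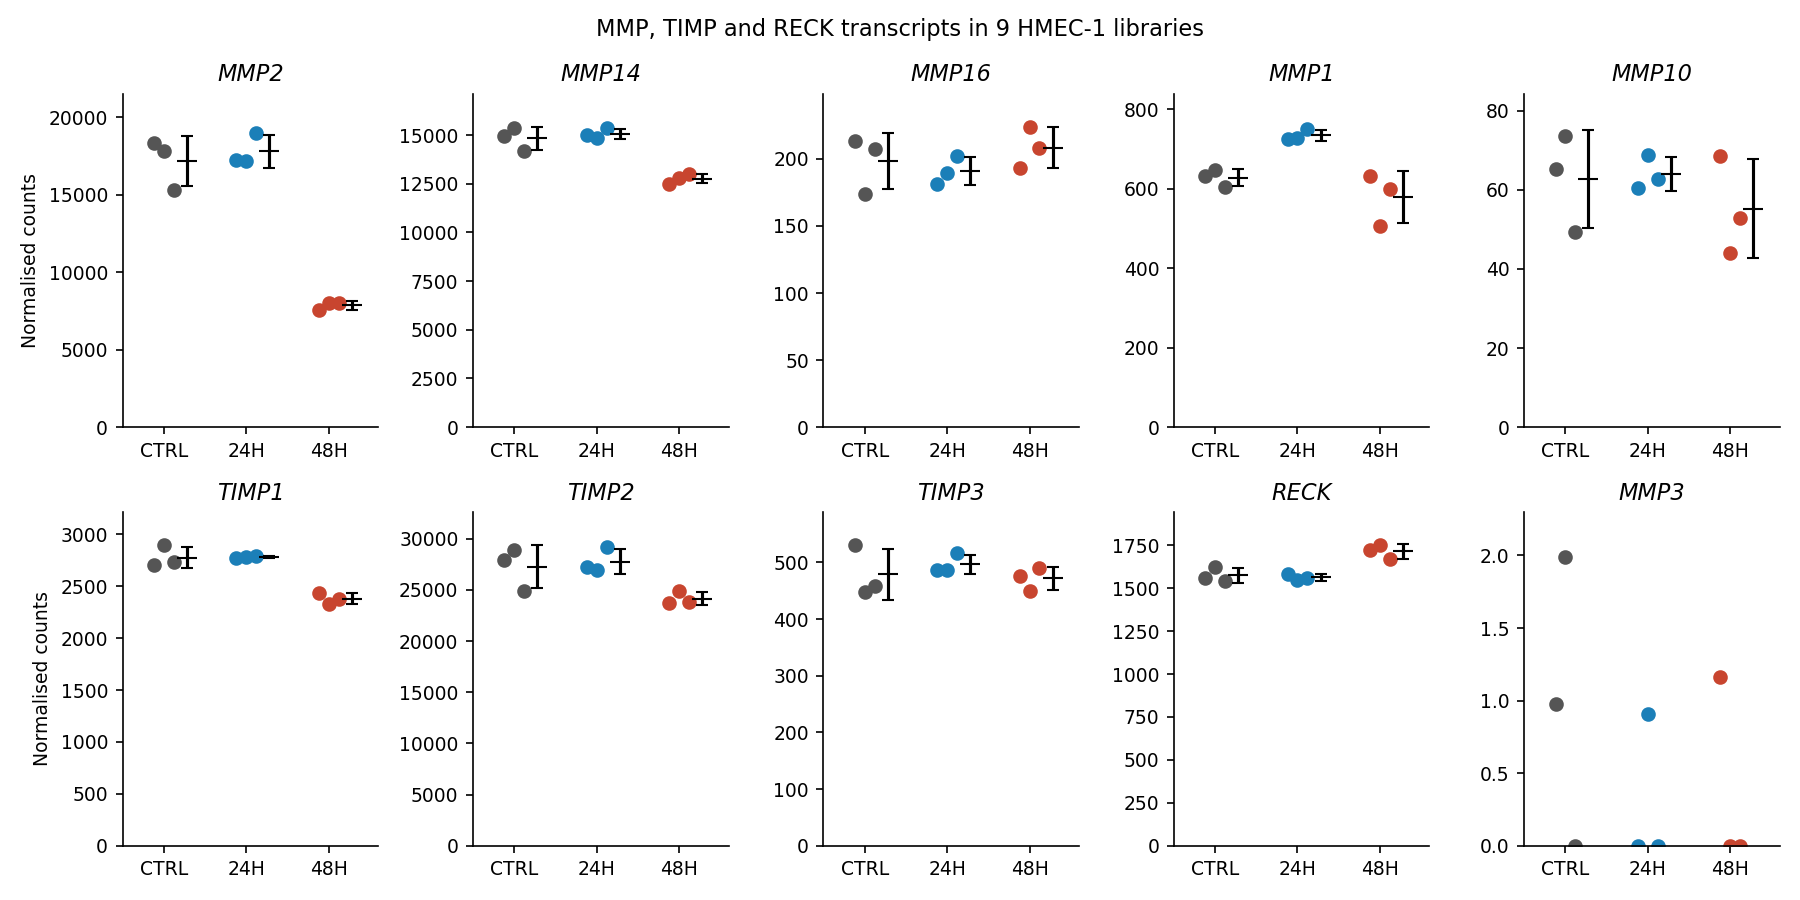
Normalised counts (vertical axes, from 0, a scale for each gene) of the 10 members in the CTRL, TMAO 24H and TMAO 48H libraries, with a point for each library and a bar for mean ± SD of 3 libraries (omitted for MMP3). The 3 MMP2 points at 48H sit between 7528 and 8027, below the lowest other library at 15331, while the 3 groups of MMP10, MMP16 and TIMP3 overlap.

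The first comparison asked what a 24H exposure changed. None of the 9 tested members passed at 24H against CTRL. Among all tested genes 14 passed, which is 0.0950%, and DESeq2 also called 0 members. MMP1 alone had an unadjusted p under 0.05 and alone had groups that did not overlap, a separation that 14.2% of all tested genes showed. The median log2 fold change of the members was 0.03, against -0.00042 for all tested genes.

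The second comparison asked what a 48H exposure changed. MMP2, MMP14 and TIMP1 fell against CTRL, so 3 of 9 members passed, all lower. Over all tested genes 10.4% passed in either direction and 5.29% passed as lower. MMP2 was the 1 member called, among 0.916% of genes called as lower. In 5 of the 9 members the 48H and control libraries did not overlap, 4 lower (MMP2, MMP14, TIMP1, TIMP2) and 1 higher (RECK), where 27.8% of all genes were separated in either direction and 13.0% as lower. The median log2 fold change of the members was -0.18, against 0.0040 for all tested genes, and 7 of the 9 estimates were below zero.

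The third comparison set 48H against 24H. The controls are on neither side of it, but they entered the same fit and its estimate of the spread. MMP1, MMP2, MMP14 and TIMP1 were lower at 48H, so 4 of 9 members passed. Over all tested genes 7.53% passed and 3.77% passed as lower. MMP2 was again the 1 member called, among 0.848% called as lower. The libraries did not overlap in 6 of 9 members, 5 lower and 1 higher, against 27.6% of all genes in either direction and 12.9% as lower. The comparisons at 48H share the same 3 libraries and are not independent.

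**Figure D2:**
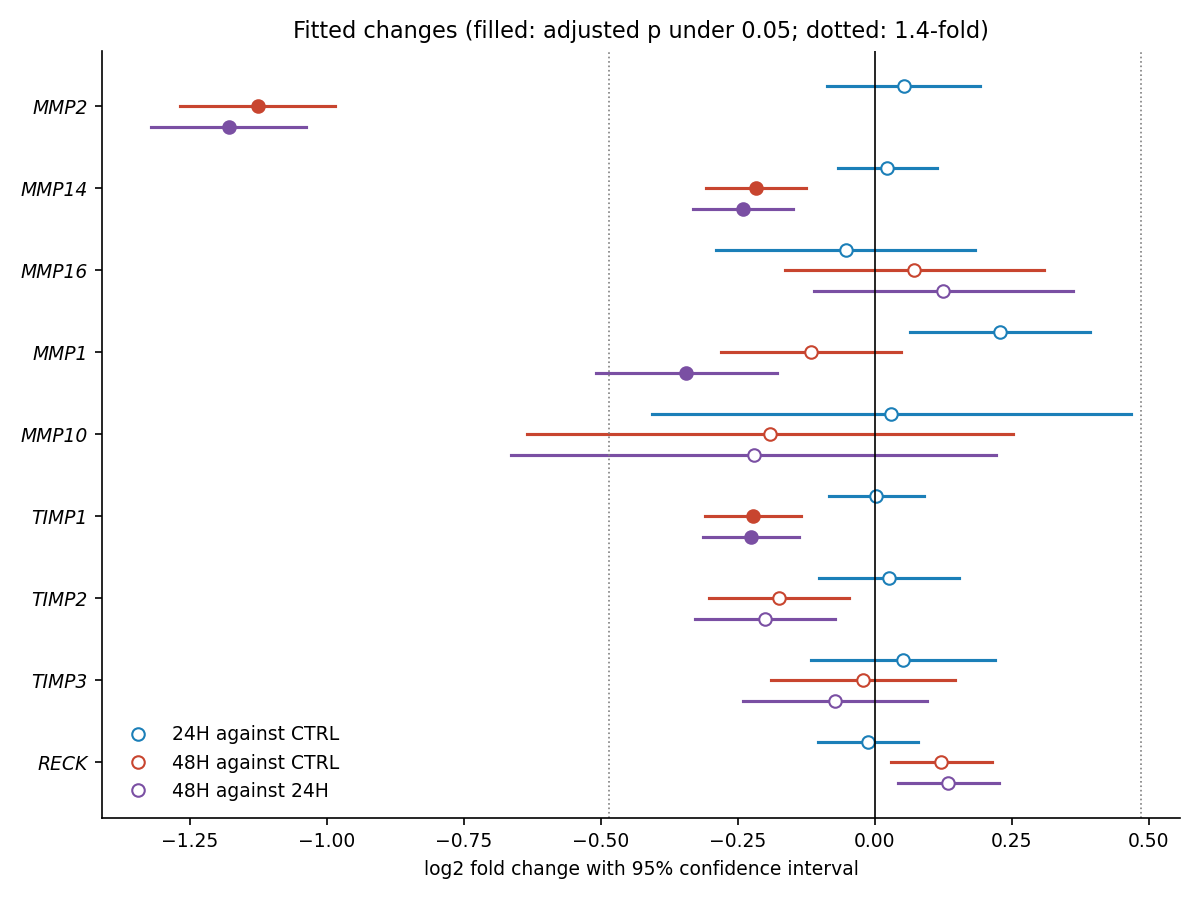
Log2 fold change (horizontal axis) with its 95% confidence interval for the 9 tested members (rows) at 24H against CTRL, 48H against CTRL and 48H against 24H, where filled points have an adjusted p under 0.05 and dotted lines mark 1.4-fold. Only the points of MMP2 lie beyond the lines, at -1.13 and -1.18, and the intervals of MMP10 are the widest.

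MMP2 (gelatinase A, which cuts denatured collagen and basement membrane type IV collagen) had the largest estimated change among the members. Its normalised counts were 18315, 17830 and 15331 in the controls, 17224, 17160 and 18997 at 24H, and 7528, 8027 and 8024 at 48H. The 24H and control libraries were interleaved, and the 48H libraries lay far below both. The means were 17159 ± 1601 in CTRL, 17794 ± 1042 at 24H and 7859 ± 287 at 48H. MMP2 stood at 0.458 times control at 48H, a log2 fold change of -1.13 (SE 0.0655, 95% interval -1.27 to -0.99, edgeR adjusted p = 2.07e-06). Against 24H the log2 fold change was -1.18 (SE 0.0656, edgeR adjusted p = 1.69e-06). At 24H it was 0.05 against CTRL, with an interval of -0.09 to 0.19 (edgeR adjusted p = 0.932).

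MMP14, the membrane-type protease that activates pro-MMP2, also fell at 48H. Its normalised counts were 14950, 15362 and 14193 in the controls and 14997, 14858 and 15364 at 24H, and 12502, 12795 and 12975 at 48H. All 3 libraries at 48H lay below every other library. The log2 fold change at 48H against CTRL was -0.22 (SE 0.0423, 0.860 times control, edgeR adjusted p = 0.00612), and against 24H it was -0.24 (edgeR adjusted p = 0.00326). At 24H the estimate was 0.02 (edgeR adjusted p = 0.960).

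TIMP2, which inhibits MMPs and also docks pro-MMP2 on MMP14, had 27938, 28959 and 24942 normalised counts in the controls and 27202, 26944 and 29165 at 24H. At 48H it had 23709, 24919 and 23861. Every 48H library was below every other library, with control replicate 3 only just above the highest of them. The log2 fold change at 48H was -0.18 against CTRL (SE 0.0591, 95% interval -0.30 to -0.05, edgeR adjusted p = 0.0771) and -0.20 against 24H (edgeR adjusted p = 0.0583), so TIMP2 passed in neither. Against CTRL it passed under DESeq2 (adjusted p = 0.0112) and, in edgeR, when control replicate 3 was left out (adjusted p = 0.00984).

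MMP16, another membrane-type protease able to activate pro-MMP2, was scarce. It ranged from 174 to 213 normalised counts in the controls, from 181 to 202 at 24H and from 193 to 224 at 48H, with overlapping groups throughout. The 48H estimate against CTRL was 0.07 (95% interval -0.16 to 0.31, edgeR adjusted p = 0.732).

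The interstitial collagenase MMP1, which cleaves fibrillar collagen, had its highest counts at 24H. Its normalised counts were 632, 646 and 605 in the controls, 726, 727 and 751 at 24H, and 631, 506 and 600 at 48H. All 24H libraries lay above all others, while the control and 48H libraries overlapped. The estimate at 24H against CTRL was 0.23 (SE 0.0764, 95% interval 0.06 to 0.39), with an unadjusted p of 0.0104 and an adjusted p of 0.520 in edgeR. At 48H against 24H MMP1 was lower by a log2 fold change of -0.34 (SE 0.0765, 0.788 times the 24H level, edgeR adjusted p = 0.0145). MMP1 no longer passed when TMAO 24H replicate 3 (edgeR adjusted p = 0.0642) or TMAO 48H replicate 2 (edgeR adjusted p = 0.0543) was left out. At 48H against CTRL the estimate was -0.12 (edgeR adjusted p = 0.365).

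Of the stromelysins, which cut proteoglycans and activate other pro-MMPs, MMP3 was near the floor of detection and MMP10 had low counts. MMP10 (stromelysin 2) had 49.4 to 73.7 normalised counts in the controls, 60.5 to 68.9 at 24H and 44.0 to 68.7 at 48H. These groups overlapped. The 48H estimate of -0.19 against CTRL had a 95% interval from -0.64 to 0.25 (edgeR adjusted p = 0.610), an interval that includes a change of 1.4-fold lower.

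Among the inhibitors, TIMP1, a secreted inhibitor of most soluble MMPs, fell at 48H. It had 2705, 2895 and 2730 normalised counts in the controls and 2769, 2785 and 2793 at 24H, and 2434, 2326 and 2380 at 48H. The 48H libraries were below all the others, and the 24H libraries lay within the range of the controls. The log2 fold change at 48H was -0.22 against CTRL (SE 0.0405, 0.857 times control, edgeR adjusted p = 0.00437) and -0.23 against 24H (edgeR adjusted p = 0.00378). TIMP1 lies within the gene SYN1 on the other strand, and the strand setting of the counting is not given in the sources used here. TIMP3 lies within SYN3, and MMP1 and MMP10 within WTAPP1, in the same way. With the counts of these genes added to the members, 3 and 4 members passed at 48H as before.

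TIMP3, the matrix-bound inhibitor that also blocks ADAM proteases, passed in none of the comparisons. It had 448 to 531 normalised counts in the controls, 486 to 517 at 24H and 449 to 490 at 48H. The 48H estimate was -0.02 against CTRL, with a 95% interval of -0.19 to 0.15 (edgeR adjusted p = 0.897).

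RECK, the membrane-anchored inhibitor, differed in sign from MMP14 and TIMP1. It had 1560, 1626 and 1545 normalised counts in the controls, 1583, 1548 and 1558 at 24H, and 1723, 1752 and 1670 at 48H. All 48H libraries lay above all others. The log2 fold change at 48H was 0.12 against CTRL (SE 0.0426, 95% interval 0.03 to 0.21, edgeR adjusted p = 0.0887) and 0.13 against 24H (edgeR adjusted p = 0.0772), so RECK passed in neither comparison.

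Promoter sequences from RefSeq (GRCh38.p14) were found for MMP10, MMP14, TIMP1, TIMP3 and RECK, and were not found for MMP1, MMP2, MMP3, MMP16 and TIMP2. The 150 bases before the start are shown for MMP14 and TIMP1, which fell together at 48H, and for RECK, which lay higher. Capitals mark GGGCGG, or CCGCCC where it is on the other strand (the GC box bound by Sp factors), and TGANTNA on either strand, a loose form of the AP-1 site TGAGTCA that was chosen after the sequences were seen and that includes it.

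MMP14, chr14:22836435-22836584, plus strand: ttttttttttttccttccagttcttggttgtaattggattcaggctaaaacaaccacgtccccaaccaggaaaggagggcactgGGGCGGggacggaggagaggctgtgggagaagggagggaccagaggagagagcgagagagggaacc
TIMP1, chrX:47582286-47582435, plus strand: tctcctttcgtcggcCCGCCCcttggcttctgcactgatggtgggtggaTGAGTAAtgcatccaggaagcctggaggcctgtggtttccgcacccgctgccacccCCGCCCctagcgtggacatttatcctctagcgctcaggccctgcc
RECK, chr9:36036763-36036912, plus strand: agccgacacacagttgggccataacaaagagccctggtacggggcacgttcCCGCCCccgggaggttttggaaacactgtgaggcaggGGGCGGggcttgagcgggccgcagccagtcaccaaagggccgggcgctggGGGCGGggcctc

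In the 250 bases before the start, GGGCGG was present on either strand in 4 of the 5 promoters (MMP14, TIMP1, TIMP3 and RECK), and in 42.6% of 35116 RefSeq promoters. TATAAA on the plus strand was present in 1 of 5, MMP10, and in 6.8% of all promoters. TGAGTCA was present in 0 of 5 and in 4.2% of all promoters. TGANTNA was present in 2 of 5 (MMP10 and TIMP1) and in 27.3% of all promoters. The GC box was shared by promoters of genes that fell at 48H and of genes that did not pass.

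Ratios within a library need no scaling between libraries, and they are given as descriptions relative to the mean control. MMP2 to TIMP2 was 1.04, 0.980 and 0.978 in the controls, 1.01, 1.01 and 1.04 at 24H, and 0.505, 0.513 and 0.535 at 48H. This ratio of transcripts stood near control at 24H and well under it in each 48H library, and the proteins were not measured. MMP2 to MMP14 was 0.534 ± 0.0111 of control at 48H, and MMP14 to TIMP2 was 0.970 ± 0.0279, with a range that overlapped the controls. MMP14 to RECK was 0.791 ± 0.0302 of control at 48H. MMP1 to TIMP1 was 1.17 ± 0.0186 at 24H and 1.08 ± 0.0980 at 48H, where TMAO 48H replicate 2 lay under the controls at 0.963.

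**Figure D3:**
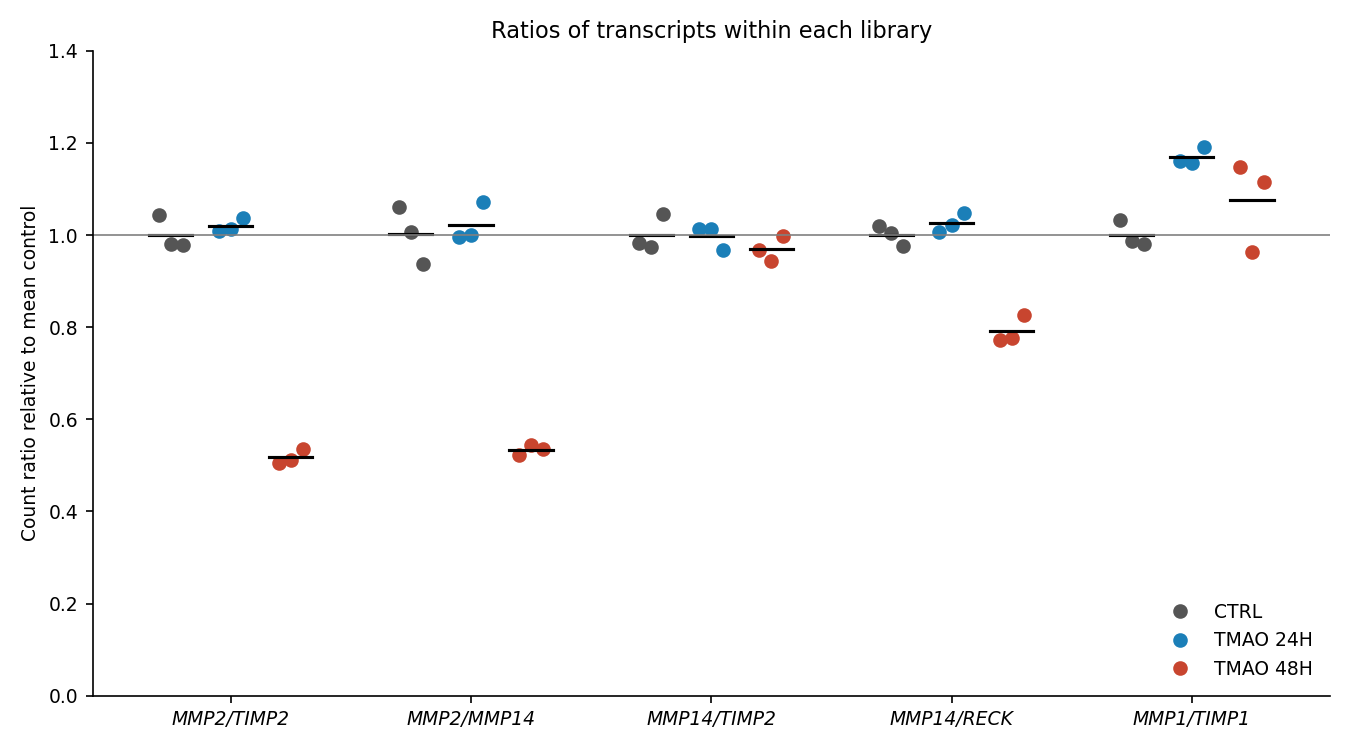
Ratio of the counts of a pair of members in each library, divided by the mean ratio of the controls (vertical axis, from 0), with a point for each library and a bar at the group mean. MMP2/TIMP2 and MMP2/MMP14 sit between 0.505 and 0.544 at 48H and near 1 elsewhere, whereas MMP14/TIMP2 overlaps the controls.

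The genes whose pattern over the 9 libraries was most like that of MMP2 were sought among 12328 genes by Pearson's r of log2 normalised counts, as a description. The 9 libraries are not 9 separate conditions, since 6 of them had one level of MMP2 and the 3 at 48H another. The 5 most alike were TGFBI (0.997), NRP1 (0.996), NID2 (0.996), LTBP1 (0.994) and CARD10 (0.994). TGFBI is a secreted matrix adhesion protein, NRP1 a co-receptor for VEGF and semaphorins, NID2 a basement membrane nidogen, and LTBP1 a matrix protein that stores latent TGF-β. As they were picked by likeness to MMP2 in these same libraries, their fall at 48H follows from that choice. TGFBI had 26514 ± 2749 normalised counts in CTRL, 28352 ± 817 at 24H and 12757 ± 704 at 48H (log2 fold change at 48H against CTRL -1.06). NID2 went from 1429 ± 128 in CTRL to 699 ± 55.0 at 48H (-1.03). Among the members, r with MMP2 was 0.98 for MMP14, 0.96 for TIMP1, 0.88 for TIMP2, 0.69 for MMP1, 0.46 for MMP10, 0.35 for TIMP3, -0.41 for MMP16 and -0.89 for RECK.

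The rest of the MMP family did not pass in any comparison. Of 17 other MMPs, 9 could be tested and 0 passed at 24H or 48H against CTRL or at 48H against 24H, with 1 at an unadjusted p under 0.05 in each direction at 48H against CTRL and 3 lower at 48H against 24H, and 0 passed without TMAO 24H replicate 1 or TMAO 48H replicate 3. The other gelatinase, MMP9, had 0 to 5 counts per library and was not tested. MMP15, a membrane-type relative of MMP14, had the highest mean of the 9, at 446 normalised counts in CTRL and 405 at 48H (edgeR adjusted p = 0.275). MMP7 (matrilysin), singled out after its values were seen, had 6.90 normalised counts in TMAO 48H replicate 3 and 24.3 to 52.4 in the other libraries. In that library the keratin KRT5 had 125 and the others 763 to 1630, and its part in the value of MMP7 was not tested.

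Other protease inhibitors and MMP-binding proteins were lower in part. Of 6 tested, 3 fell at 48H against CTRL and 0 passed as higher, and the median log2 fold change was -0.43. Over all tested genes 5.29% passed as lower and 5.14% as higher. SERPINE2 (protease nexin 1) had 7736 ± 546 normalised counts in CTRL and 4466 ± 225 at 48H (log2 fold change -0.79, SE 0.0548, edgeR adjusted p = 4.36e-06). The other two were TFPI2, a Kunitz-type inhibitor, at -0.39, and the matrix glycoprotein THBS1, at -0.47, both named after their values were seen. TIMP4, the remaining TIMP, was low, at 17.1 to 21.4 normalised counts in CTRL, 17.9 to 31.4 at 24H and 8.06 to 11.6 at 48H. It was lower at 48H against 24H (log2 fold change -1.31, edgeR adjusted p = 0.0294), but not when TMAO 24H replicate 1 (edgeR adjusted p = 0.131) or TMAO 48H replicate 3 (edgeR adjusted p = 0.0701) was left out. Its estimate against CTRL was -0.96 (edgeR adjusted p = 0.0901).

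Genes linked to the activation of pro-MMPs or to MMPs at the cell surface changed in part. Of 12 tested, 4 fell at 48H against CTRL and 0 passed as higher, with a median of -0.17. Over all tested genes 5.29% passed as lower and 5.14% as higher. PLAT (tissue plasminogen activator) had 3092 ± 321 normalised counts in CTRL and 2080 ± 100 at 48H (log2 fold change -0.57, SE 0.0657, edgeR adjusted p = 0.000200). The others, named after their values were seen, were the proprotein convertase FURIN (-0.17), the urokinase receptor PLAUR (-0.23) and the caveolar protein CAV1 (-0.32). Without TMAO 48H replicate 3 the count was 6 of 13 tested, with CD44 and LRP1 added. At 48H against 24H these 6 genes were lower, and 3 of them (CAV1, PLAT and PLAUR) were without TMAO 24H replicate 1. In that comparison of all 9 libraries 3.77% of all tested genes passed as lower.

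Among the related ADAM sheddases, 1 of 9 tested rose and 2 fell at 48H against CTRL, and the median was 0.07. ADAM19 (-0.43) and ADAM12 (-0.47) fell and ADAM23 (0.34) rose. Of the ADAMTS proteases, which process procollagens and proteoglycans, 5 of 14 tested fell and 1 rose, with a median of -0.28. Over all tested genes 5.29% passed as lower and 5.14% as higher. ADAMTS15 (-0.61), ADAMTS10 (-0.60) and ADAMTS14 (-0.84) fell by at least 1.4-fold, ADAMTS6 (-0.39) and ADAMTS7 (-0.38) fell by less, and ADAMTS12 (0.67) rose. The genes of these families that did not reach 1.4-fold in any comparison are named after their values were seen.

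Transcripts of MMP substrates were lower at 48H as well. Of 18 tested matrix genes, 8 fell at 48H against CTRL and 0 passed as higher, with a median of -0.21. Over all tested genes 5.29% passed as lower and 5.14% as higher. The same 8 matrix genes passed without TMAO 24H replicate 1 or TMAO 48H replicate 3. COL1A2, a chain of type I collagen, had 8983 ± 960 normalised counts in CTRL, 8877 ± 556 at 24H and 4260 ± 344 at 48H (log2 fold change -1.08, edgeR adjusted p = 5.95e-06). COL6A3, a type VI collagen chain, had 127 ± 22.8, 154 ± 2.36 and 34.6 ± 1.38 (-1.87, edgeR adjusted p = 2.02e-05). VCAN, the proteoglycan versican, stood at -0.92, COL1A1 at -0.67, fibronectin (FN1) at -0.60 and COL5A1 at -0.49, all past the threshold. The basement membrane collagens COL4A1 and COL4A2, named as substrates of MMP2 after their values were seen, did not pass, at -0.07 (edgeR adjusted p = 0.500) and -0.14 (edgeR adjusted p = 0.141).

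**Figure D4:**
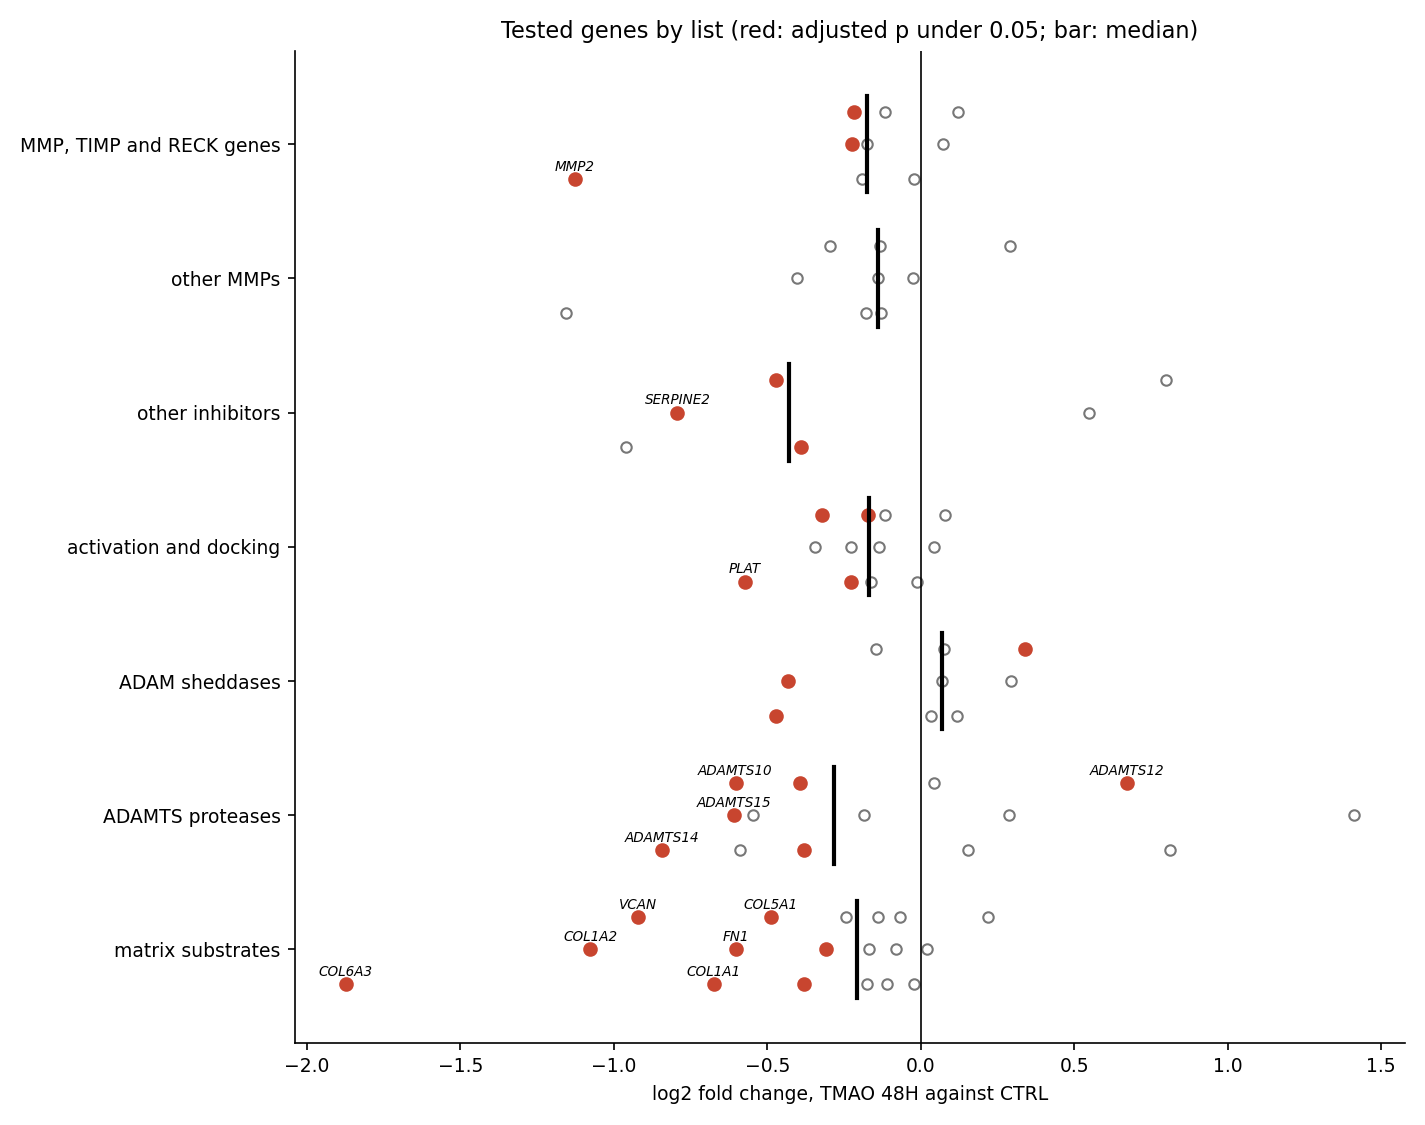
Log2 fold change at 48H against CTRL (horizontal axis) for each tested gene of 7 lists (rows), with genes past an adjusted p of 0.05 in red, those also past 1.4-fold named, and a bar at the median of each list. MMP2 at -1.13 stands apart from the other members, and the matrix substrates reach -1.87 in COL6A3.

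Factors of the AP-1 and ETS families, which bind promoters of several MMP genes, changed in part. Of 13 tested, 2 fell at 24H against CTRL, FOS (log2 fold change -1.14, edgeR adjusted p = 0.00300) and JUN (-0.31, edgeR adjusted p = 0.0300), and only FOS without TMAO 24H replicate 1. At 48H against CTRL 3 rose, JUN (0.26), FOSL1 (0.23) and FOSL2 (0.20), and 2 fell, ETS2 (-0.25) and the endothelial factor ERG (-0.18). FOSL1, FOSL2, ETS2 and ERG are named after their values were seen. At 48H against 24H 5 of the 13 were higher and 2 lower, against 3 and 1 without TMAO 24H replicate 1, and the others did not pass. Over all tested genes 0.0950% were lower at 24H against CTRL. At 48H against CTRL 5.14% were higher and 5.29% lower, and at 48H against 24H 3.77% were higher and 3.77% lower.

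The labelled cell type was checked against its markers. All 13 endothelial markers were detected, and their summed normalised counts were 85545 to 95038 in CTRL, 84910 to 90033 at 24H and 76089 to 82611 at 48H. At 48H against CTRL 7 of the 13 were lower and 0 were called, where 5.29% of all tested genes passed as lower and 5.14% as higher. At 48H against 24H 5 of the 13 were lower and 1 was higher, against 1 and 1 without TMAO 24H replicate 1. The higher 1 was VWF (von Willebrand factor, log2 fold change 0.51, edgeR adjusted p = 0.00112). Its estimate at 48H against CTRL was 0.09 (edgeR adjusted p = 0.500). VWF did not pass at 24H against CTRL, but was lower there without TMAO 48H replicate 3 (log2 fold change -0.42, edgeR adjusted p = 0.0300). For fibroblast markers the sum was 29826 to 34743 in CTRL, 30182 to 32544 at 24H and 19627 to 21419 at 48H. It was made up mostly of COL1A1 and COL1A2, and 3 of the 11 markers (DCN, LUM and DPT) had at most 3 counts in any library. The markers of this list moved both ways at 48H against CTRL, where 3 of 8 tested fell and 2 rose. COL1A1, COL1A2 and the surface protease FAP (log2 fold change -0.72, edgeR adjusted p = 0.00556) fell. The smooth muscle actin ACTA2 (0.74, edgeR adjusted p = 0.00194) and the surface glycoprotein THY1 (0.47, edgeR adjusted p = 0.00147), named after its values were seen, rose. For leukocyte markers the sum was 590 to 712 over all libraries, mostly CD68, and 4 of 6 had at most 3 counts. The keratinocyte sum was 1878 to 3108 in CTRL, 1584 to 2031 at 24H and 373 to 2837 at 48H, the lowest in TMAO 48H replicate 3. Without that library 3 members passed at 48H against CTRL and 4 at 48H against 24H, and the same counts were found without TMAO 24H replicate 1. In such bulk libraries fewer cells of a type and less RNA per cell cannot be told apart, and the part of these markers in the fall of MMP2, MMP14 and TIMP1 was not tested.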

How the data were processed

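RNA of HMEC-1 was sequenced in 9 libraries, 3 per group, grouped and numbered by their labels. The authors processed the reads with the nf-core RNAseq pipeline (version 3.6) and deposited estimated counts per gene without normalisation. Of these values 14.7% were not whole. The quantifier, genome build and annotation are not given in the sources used here. The labels do not say whether replicates were separate cultures, so p-values measure only the spread between these libraries.

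Counts were rounded. In R 4.3.3, edgeR 4.0.16 fitted all 9 libraries with filterByExpr (14740 genes kept), TMM and the quasi-likelihood test (glmQLFit with legacy = FALSE), with Benjamini-Hochberg adjustment. The call thresholds (adjusted p under 0.05, 1.4-fold) are those of the study's methods. Standard errors were derived from the F statistic. An exact permutation test of 3 libraries against 3 cannot go below p = 0.1, so it was not used. Exon lengths came from GENCODE v29 (GRCh38). The fit was tested on simulated data at an adjusted p under 0.05. At 48H against CTRL it recovered 93 of 100 genes changed 2-fold and 92 of 100 changed 1.5-fold. Of the 204 genes that passed there, 19 were false, and 13 of 199 were false at 48H against 24H. The alternatives were DESeq2 1.42.0, other scalings, filters and fits, a replicate block, and leaving out each library.

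The 10 members and all gene lists were chosen with earlier results of these data known. All members are named. From each list, genes called in any comparison are named (at most 8), and others where the text says so. One gene of a list is not reported here, and its list's counts and median leave it out.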

Additional observations from a re-analysis of the deposited data

Results flagged for a closer look

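For 4 members the change from CTRL at 48H differed from that at 24H by the test of that difference itself. This test is the comparison of 48H with 24H in edgeR's quasi-likelihood fit, as the control group is common to both. Over all tested genes 7.53% passed in it, and 3.77% passed as lower. The difference in log2 fold change was -0.344 for MMP1 (adjusted p = 0.0145), with libraries at 24H above the controls and libraries at 48H within or below their range. It was -1.18 for MMP2 (adjusted p = 1.69e-06), -0.241 for MMP14 (adjusted p = 0.00326) and -0.225 for TIMP1 (adjusted p = 0.00378), where the 24H libraries overlapped the controls and all 3 libraries at 48H were lower. The culture time of the controls cannot be told apart from TMAO in the changes against CTRL, and the comparison of 48H with 24H also spans a difference in culture time.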

How the results depend on the processing

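The counts of members passed (0 at 24H, 3 at 48H against CTRL, 4 at 48H against 24H) moved by less than 1.5 times under each alternative, and MMP2 was called in both 48H comparisons in each. With no fold threshold the members called were 3 at 48H against CTRL and 4 at 48H against 24H. Apart from libraries left out, 221 of the values kept their direction and side of the threshold, 6 became significant (all TIMP2) and 1 reversed, TIMP1 at 24H against CTRL, at -0.00067 with the counts of SYN1 added. At 48H against 24H TIMP2 passed with DESeq2 (adjusted p = 0.00269), all genes kept (0.0488), a filter of 10 counts in each library (0.0485), a fit of only those groups (0.0213), ribosomal RNA genes removed (0.0343) or without control replicate 3 (0.0105), the last 5 in edgeR. Leaving out each library in turn turned the sign of 14 estimates, none of them past the threshold. At 24H against CTRL the ranges were -0.020 to 0.10 for MMP2, -0.11 to 0.16 for MMP10, -0.0051 to 0.049 for MMP14, -0.14 to 0.0021 for MMP16, -0.016 to 0.034 for TIMP1, -0.032 to 0.071 for TIMP2 and -0.025 to 0.0097 for RECK. At 48H against CTRL they were -0.013 to 0.13 for MMP16 and -0.068 to 0.058 for TIMP3. MMP2 at 48H against CTRL ranged from -1.21 to -1.08. The cause was not tested.

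Samples share only a replicate number. The deviations of same-numbered libraries correlated at -0.12 to 0.09 (9 pairs), and those of other pairs at -0.10 to 0.16. With a replicate block the members passed were 0, 3 and 4 and those called 0, 1 and 1. MMP3, MMP10 and MMP16 have too few counts for small changes to be resolved.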
